A study of Rattus norvegicus with 6 samples.

Results

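Fibrillar collagens are the collagens whose chains assemble into the banded fibrils of tendon, and 7 genes for such chains were followed here: Col1a1 and Col1a2 of type I, Col3a1 of type III, Col5a1, Col5a2 and Col5a3 of type V, and Col11a1 of type XI. They were taken by gene name from a deposited expression table of 33300 rows, where each of the 7 names had 1 row, and all 7 were among the 12733 genes abundant enough to be tested. The samples were rat tendon stem/progenitor cells, which can renew themselves and form tendon cells, sequenced after 7 days in culture. Control cells (3 libraries) received F12 medium, and NAC cells (3 libraries) received F12 medium with N-acetyl-L-cysteine, a cysteine-supplying thiol antioxidant, at 500 uM. Both groups carry the same label of tenogenic differentiation, the labels also call the cells mesenchymal stem cells, and neither strain, age nor sex of the animals was used here. The labels do not state whether libraries within a group are from different cultures. The p-values therefore cover the spread between these 6 libraries alone, which may be technical.

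A fibrillar collagen molecule is a triple helix of 3 chains that is secreted as a procollagen, trimmed at its ends and then laid down side by side with others. Type I, built from Col1a1 and Col1a2 chains with the Col1a1 chain in excess, is the bulk protein of tendon, and type III, built from Col3a1 chains alone, makes thinner fibrils that are abundant in young or healing tendon. Types V and XI are minor partners inside the same fibrils. They start fibril assembly and hold fibril diameter down, and their chains can mix in 1 molecule.

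All 7 chains rose with NAC, but not by the same amount. Col1a1, already the most abundant chain, rose 2.00-fold, the type V and XI chains rose 1.42-fold to 1.80-fold, and Col1a2 and Col3a1 rose 1.33-fold and 1.26-fold (ratio of mean FPKM, n = 3 per group). FPKM counts fragments per kilobase of gene, scaled by a total for each library. That total was 1.02 to 1.04 times the reads recovered from the FPKM values in Control and 0.909 to 0.925 times in NAC. Fold changes as deposited therefore depend on this scaling. Within a library FPKM can be set side by side between genes as far as the deposited gene lengths hold. In each of the 7 chains all 3 NAC values lay above all 3 Control values, which was so in 16.7% of all tested genes. Calls were made with limma on log2(FPKM + 1) at a Benjamini-Hochberg adjusted p under 0.05, corrected across the 12733 genes. By this rule 7 of 7 chains were higher, against 6.08% of all tested genes higher and 2.72% lower. The median log2 fold change was 0.56 over the 7 chains and -0.0063 over all tested genes.

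**Figure D1:**
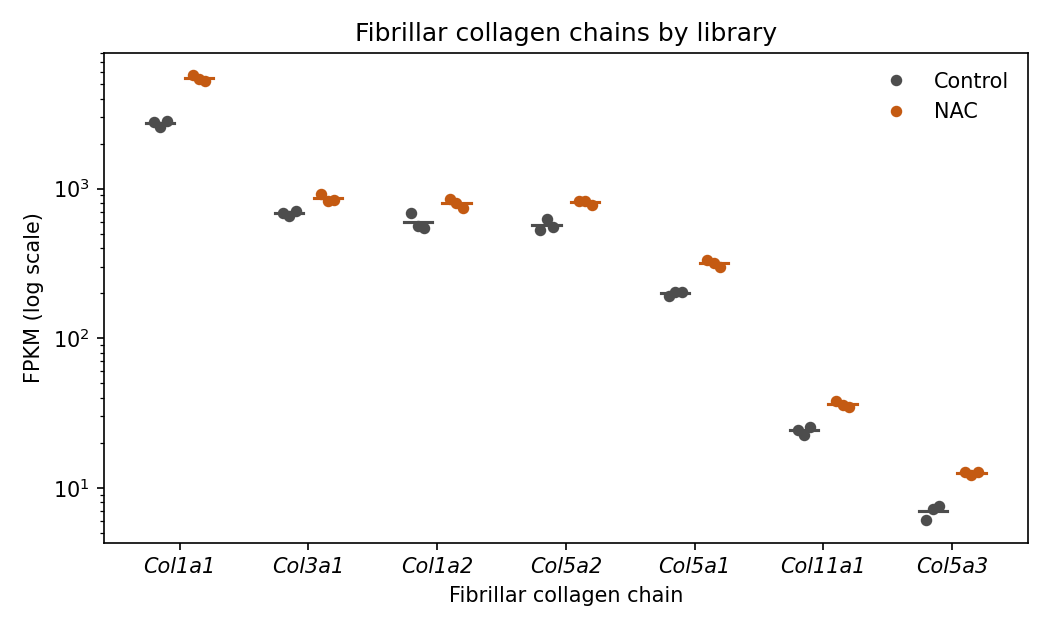
FPKM (log axis) of each fibrillar collagen chain in the 3 Control and 3 NAC libraries. Points are libraries and bars are group means. All NAC points lie above the Control points of the same chain, and the levels span from 6.07 FPKM for Col5a3 to 5723 FPKM for Col1a1.

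Depth was 12487215 to 14941949 reads per library, as recovered from the FPKM values. The chains rested on between 506 reads (Col5a3 in Control 1) and 452817 reads (Col1a1 in NAC 1). The first principal component separated the groups, and on the second Control 2 scored -21.8 against -4.23 to 10.3 in the remaining 5. Of 8 tendon markers all were measured, with a summed level of 5991 to 6690 FPKM in Control and 8175 to 8253 FPKM in NAC. Dcn, a small proteoglycan, made up most of it (4489 and 5620.4 FPKM in Control and NAC). Of the 8, Dcn and Tnc were called higher and none lower. The transcription factors Scx (12.5 and 11.6 FPKM) and Mkx (5.28 and 3.90 FPKM) were not called. Tnmd, the marker of mature tendon cells, stood at 1.41 ± 0.369 and 2.55 ± 0.537 FPKM (SD, n = 3). Thy1, a mesenchymal surface marker, stood at 916 and 1009 FPKM. Ptprc of blood cells, Cdh5 of endothelium, Krt14 of epithelium and Sox10 of Schwann cells were listed at 0 in every library. Other genes of those lists were detected in both groups: S100b at 50.0 and 49.0 FPKM in Control and NAC, Cd14 at 14.0 and 15.3, Cd68 at 5.18 and 4.33, Krt8 at 1.06 and 1.01 and Kdr at 0.251 and 0.390. Of these Kdr lay under the limit for testing and the others were not called. The blood and macrophage list summed to 18.0 to 21.6 FPKM in Control and 18.5 to 21.0 in NAC, the Schwann and nerve list to 47.1 to 55.1 and 47.8 to 53.2, the epithelial list to 0.594 to 1.47 and 0.969 to 1.09 and the endothelial list to 0.368 to 0.750 and 0.668 to 0.749. The 6 smooth muscle and pericyte markers summed to 415 to 511 FPKM in Control and 315 to 383 FPKM in NAC, with Myh11, a smooth muscle myosin, called lower and none higher. Most of that sum was Acta2, smooth muscle actin (366 ± 43.3 and 278 ± 29.6 FPKM, not called, limma adjusted p = 0.0655). The list did not move as one: at an unadjusted p under 0.05, 1 marker was higher (Cspg4, 18.3 and 21.3 FPKM) and 2 lower. At that limit 3355 of the 12733 tested genes passed in either direction. The part of this list in the chains' change was not tested. In bulk libraries a shift in the share of a cell type and a shift in RNA per cell cannot be told apart.

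Of the type I chains, Col1a1 alone came first in abundance in both groups, and Col1a1 and Col1a2 diverged with NAC. Col1a1 (ENSRNOG00000003897; chromosome 10, 82745801 to 82762789, plus strand, in the deposited table's coordinates, of a build not given in the sources used here) stood at 2787, 2589 and 2818 FPKM in Control 1 to 3 and at 5723, 5412 and 5223 FPKM in NAC 1 to 3. The lowest NAC value was thus far above the highest Control value, and the SD was 4.54% and 4.63% of the mean in Control and NAC. The log2 fold change was 1.00 ± 0.0537 (SE, limma adjusted p = 4.06e-04), and 0.558% of tested genes had a higher one. By FPKM Col1a1 ranked 8th to 14th among all rows in the Control libraries and 5th in each NAC library.

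Col1a2 (ENSRNOG00000011292; chromosome 4, 31534225 to 31569151, plus strand), which supplies the second chain of the type I molecule, stood at 691, 564 and 549 FPKM in Control and at 854, 806 and 740.4 FPKM in NAC. Control 1 was higher than the other Control libraries and came close to NAC 3, so the groups were separate by a narrow margin. The log2 fold change was 0.42 ± 0.0968 (SE, limma adjusted p = 0.0458), just inside the threshold. The call ended when Control 2 (0.37), Control 3 (0.36), NAC 1 (0.37), NAC 2 (0.41) or NAC 3 (0.47) was left out, with library totals (0.24, adjusted p = 0.0941) and with quantile normalization (0.22, adjusted p = 0.222; across settings 0.0107 to 0.222).

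Col3a1 (ENSRNOG00000003357; chromosome 9, 52023295 to 52059217, plus strand) had the smallest change of the 7. It stood at 688, 657 and 712 FPKM in Control and at 921, 829 and 840.1 FPKM in NAC, again without overlap. The log2 fold change was 0.33 ± 0.0537 (SE, limma adjusted p = 0.0151). This call ended without Control 1 (0.33), NAC 1 (0.28) or NAC 2 (0.36), with library totals (0.16, adjusted p = 0.0738) and with quantile normalization (0.15, adjusted p = 0.189; across settings 0.00218 to 0.189).

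Of the type V chains, Col5a1 and Col5a2 make up the common type V molecule and Col5a3 a rarer form. Col5a1 (ENSRNOG00000008749; chromosome 3, 6430201 to 6578882, plus strand) stood at 193, 203 and 203 FPKM in Control and at 332, 319 and 299.8 FPKM in NAC. Its groups were tight and well apart, and the log2 fold change was 0.66 ± 0.0472 (SE, limma adjusted p = 7.35e-04). Col5a2 (ENSRNOG00000003736; chromosome 9, 52092511 to 52238564, minus strand) stood at 529, 623 and 557 FPKM in Control and at 823, 830.1 and 774 FPKM in NAC, with Control 2 the highest Control library here. Its log2 fold change was 0.51 ± 0.0658 (SE, limma adjusted p = 0.00756).

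Col5a2 is also the neighbour of Col3a1. In the deposited table the 2 genes face each other with their ends 33293 bases apart and 0 genes listed between them. Their changes, 0.51 for Col5a2 and 0.33 for Col3a1 on the log2 scale, were not tested against each other.

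Col5a3 and Col11a1 were the scarce chains. Col5a3 (ENSRNOG00000020525; chromosome 8, 21786324 to 21831668, minus strand) stood at 6.07, 7.22 and 7.61 FPKM in Control and at 12.7, 12.1 and 12.7 FPKM in NAC. The NAC libraries were close together while Control 1 lay low. Its log2 fold change, 0.77 ± 0.0819 (SE, limma adjusted p = 0.00365), was the second largest of the 7. The pseudocount of 1 FPKM understates the change of so scarce a gene, and with a pseudocount of 0.1 it was 0.84.

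Col11a1 (ENSRNOG00000023148; chromosome 2, 216863428 to 217056523, plus strand), a chain best known from cartilage fibrils, stood at 24.3, 22.7 and 25.7 FPKM in Control and at 37.8, 35.8 and 34.9 FPKM in NAC. Its groups were apart by more than their spread, and the log2 fold change was 0.56 ± 0.0574 (SE, limma adjusted p = 0.00312). The cartilage collagens Col2a1 and Col9a1 were near or at 0 in the same libraries: Col2a1 reached at most 0.0450 FPKM in any library, and Col9a1 was listed at 0. Cartilage markers as a whole were not absent. Sox9 averaged 9.60 FPKM without NAC and 8.72 with it, Acan 2.30 and 1.89, and neither was called. Matn1 was listed at 0 and Matn3 lay under the limit for testing. Sums over these 6 markers ranged from 10.2 to 14.5 FPKM across Control libraries and from 10.2 to 11.6 across NAC libraries.

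In Control the order of levels was Col1a1, Col3a1, Col1a2, Col5a2, Col5a1, Col11a1 and Col5a3. The ranges of Col3a1 and Col1a2 overlapped, as did those of Col1a2 and Col5a2, whereas every other neighbouring pair was apart. With NAC, Col5a2 (mean 809 FPKM) stood between Col3a1 (863 FPKM) and Col1a2 (800 FPKM), and the range of Col5a2 overlapped those of both. Col3a1, Col1a2 and Col5a2 were thus present at similar levels in both groups, with Col1a1 several-fold above each of them.

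Scaling set how large the changes were but not their direction. As deposited, the median change over all genes was near 0, whereas dividing by each library's total of recovered reads moved that median to -0.16. Relative to that median, the changes with library totals were 0.98 for Col1a1, 0.40 for Col1a2, 0.32 for Col3a1, 0.65 for Col5a1, 0.49 for Col5a2, 0.77 for Col5a3 and 0.55 for Col11a1. Quantile normalization, which gives the same value to genes of the same rank, brought the Col1a1 change down to 0.52 and left Col5a3 at 0.78 and Col11a1 at 0.55. Under it, Col5a3 had the largest change of the 7 chains. All 7 changes stayed above 0 under each of the 16 alternative settings.

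**Figure D2:**
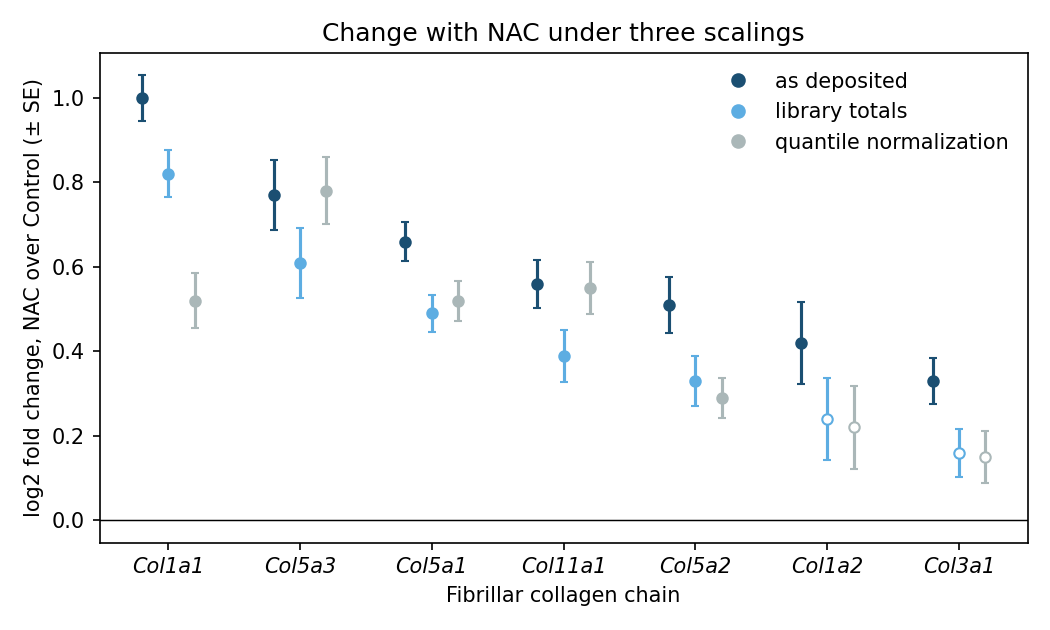
Log2 fold change, NAC over Control, of each chain (points, ± SE) as deposited, with library totals and with quantile normalization. Filled points passed an adjusted p under 0.05. All points lie above 0, and the open points are Col1a2 and Col3a1 under the last 2 scalings.

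The changes differed enough to shift the makeup of the fibrillar chain transcripts. Col1a1 held 56.7%, 55.5% and 57.8% of the 7 chains' summed FPKM in Control 1 to 3 and 65.8%, 65.7% and 65.9% in NAC 1 to 3. The 3 NAC libraries were nearly equal and all lay above the Control libraries. Col3a1 went from 14.2 ± 0.332% to 10.4 ± 0.310% of the sum, Col1a2 from 12.5 ± 1.42% to 9.64 ± 0.261% and Col5a2 from 11.9 ± 1.35% to 9.76 ± 0.307% (SD, n = 3). These 3 chains therefore held a smaller share while each rose in level. Each of these shares had an exact permutation p = 0.10 (two-sided), the smallest that 3 libraries against 3 allow. The 7 chains together took 1.11 ± 0.0478% of all FPKM in Control and 1.74 ± 0.0820% in NAC (exact permutation p = 0.10), or 2.68% and 4.16% of the recovered reads.

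**Figure D3:**
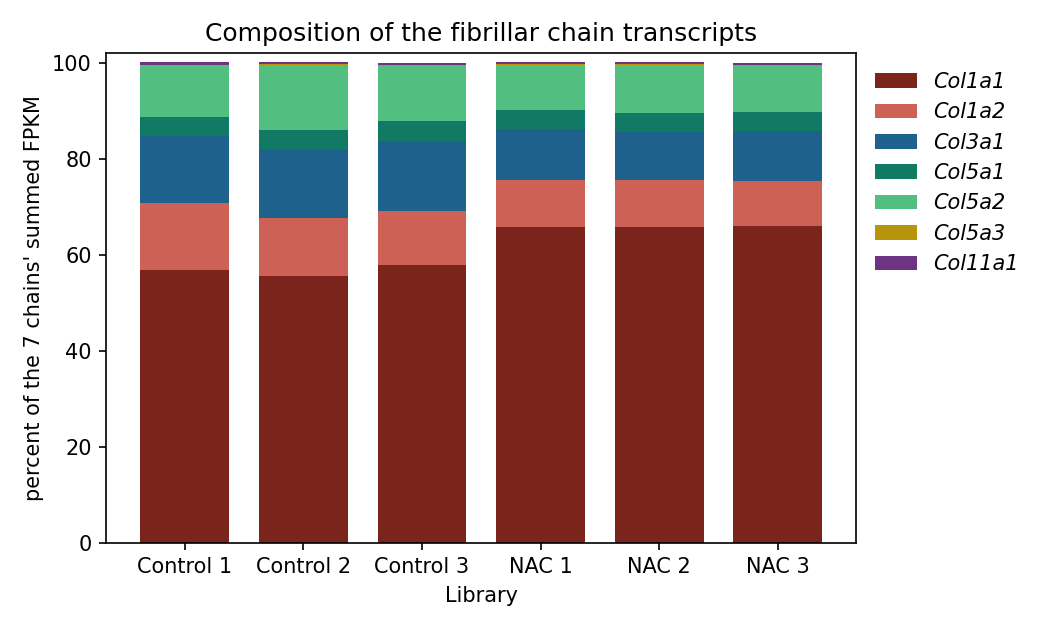
Percent of the summed FPKM of the 7 chains held by each chain (stacked bars) in the 3 Control and 3 NAC libraries. The Col1a1 part is 55.5% to 57.8% in Control and 65.7% to 65.9% in NAC, and Col5a3 and Col11a1 are thin bands at the top.

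Ratios of chains within a library stay the same when that library is multiplied by 1 factor, as with library totals, but not under quantile normalization, and 10 were computed on the deposited values. The Col1a1 to Col1a2 ratio, that of the 2 partners of type I, was 4.03, 4.59 and 5.13 in Control and 6.70, 6.71 and 7.05 in NAC. The Control libraries spread widely, with Col1a2 high in Control 1 and Col1a1 low in Control 2, and all lay below the NAC libraries. The Col1a1 to Col3a1 ratio was far tighter, at 4.05, 3.94 and 3.96 in Control and 6.22, 6.53 and 6.22 in NAC. It moved from a mean of 3.98 ± 0.0561 to 6.32 ± 0.181 (SD, n = 3), the largest shift of the 10 ratios (0.67 on the log2 scale).

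The Col1a1 to Col11a1 ratio went from 113 ± 2.67 to 151 ± 0.974, that of Col1a1 to Col5a1 from 13.7 ± 0.853 to 17.2 ± 0.218 and that of Col1a1 to Col5a2 from 4.82 ± 0.591 to 6.74 ± 0.217 (SD, n = 3). In all these the groups did not overlap. The Col1a1 to Col5a3 ratio was 459, 359 and 370 in Control and 450, 446 and 412 in NAC, so the groups overlapped (exact permutation p = 0.400). Of the 10 ratios 6 were higher and 2 lower in every NAC library than in every Control library, with an exact permutation p = 0.10 for each, 0.125 after adjustment over the 10, in a design that cannot go below 0.10.

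A test with more power, added after the data were seen, was limma on the log2 ratio of every gene to Col1a1. Relative to Col1a1 the change was 0.67 ± 0.0632 smaller in Col3a1 (log2, SE, limma adjusted p = 4.62e-05), 0.58 ± 0.0996 smaller in Col1a2 (adjusted p = 9.26e-04), 0.49 ± 0.103 smaller in Col5a2 (adjusted p = 0.00274), 0.44 ± 0.0617 smaller in Col11a1 (adjusted p = 3.26e-04) and 0.33 ± 0.0728 smaller in Col5a1 (adjusted p = 0.00323). These 5 differences also passed with any 1 of the 6 libraries left out (highest adjusted p = 0.0122). For Col5a3 the difference of 0.23 ± 0.102 did not pass (adjusted p = 0.0634) and passed only without Control 1 (adjusted p = 0.0112). This fit added 1 FPKM to each value, and without it the Col1a1 to Col5a3 shift was 0.15 on the log2 scale. Of all genes 95.8% were called lower relative to Col1a1, so 5 of 6 chains is no more than the share among genes at large. Under quantile normalization, which was not used in this test, the change of Col1a1 (0.52) was equal to that of Col5a1 (0.52) and below those of Col11a1 (0.55) and Col5a3 (0.78), while Col5a2 (0.29), Col1a2 (0.22) and Col3a1 (0.15) stayed below it.

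**Figure D4:**
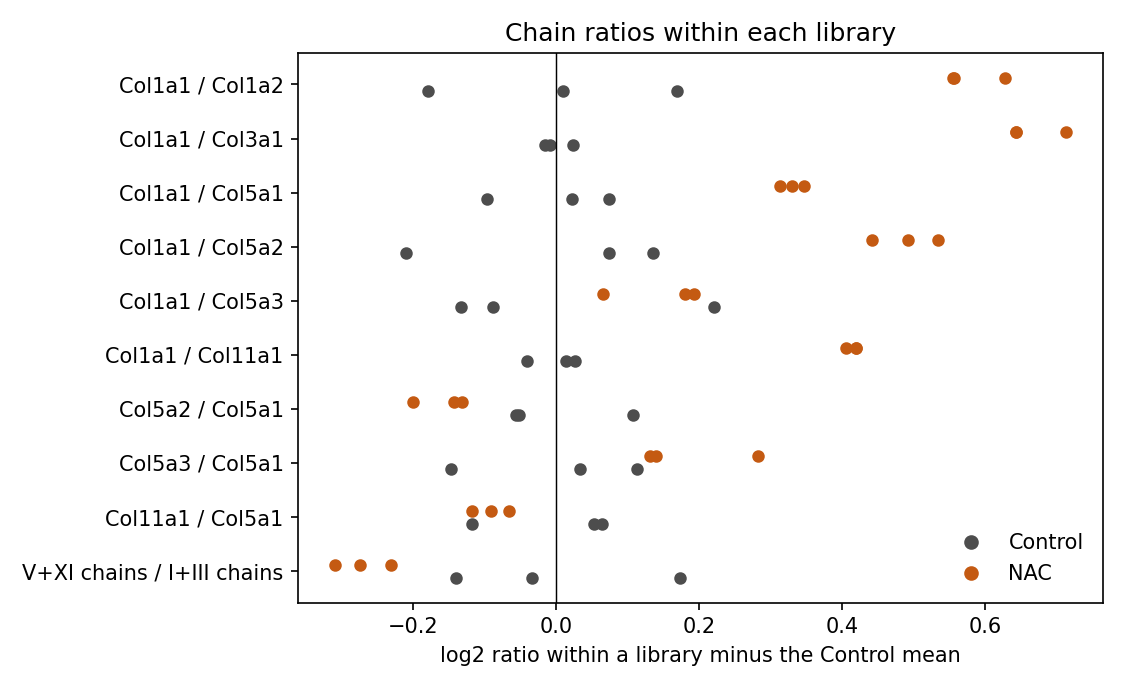
Log2 ratio of chains within each library minus the Control mean of that ratio (x axis), for 10 ratios (y axis). Points are libraries. The NAC points lie to the right of all Control points for 5 of the 6 ratios with Col1a1, overlap them for Col1a1 to Col5a3, and lie to the left for the summed V and XI chains over the summed I and III chains.

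Among the minor chains the ratios moved less. Col5a2 to Col5a1 was 2.74, 3.07 and 2.75 in Control and 2.48, 2.60 and 2.58 in NAC, lower in each NAC library. Col5a3 to Col5a1 was 0.0314, 0.0356 and 0.0376 in Control and 0.0383, 0.0381 and 0.0423 in NAC, higher in each NAC library by a narrow margin. Col11a1 to Col5a1 overlapped between the groups (0.121 ± 0.00827 and 0.114 ± 0.00209, SD, n = 3; exact permutation p = 0.400). By limma on ratios to Col5a1, none of the 3 passed (adjusted p = 0.0837 for Col5a2, 0.280 for Col5a3 and 0.224 for Col11a1), while 90.2% of all genes were called lower relative to Col5a1. With the 1 FPKM added in that fit the Col5a3 to Col5a1 shift was 0.10 on the log2 scale, against 0.18 without it. The 4 chains of types V and XI summed to 0.200 ± 0.0225 of the 3 chains of types I and III in Control and to 0.165 ± 0.00451 in NAC, with no overlap (exact permutation p = 0.10).

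The letters just before the annotated starts of these genes are shown because the chains rose together and the CCAAT box is a known element of the Col1a2 promoter. Sequences are those of RefSeq for the rat build GRCr8, whose table held 5 of the 7 genes by symbol (Col1a2, Col5a1, Col5a2, Col5a3 and Col11a1). The 250 bases before each start were searched on both strands for CCAAT, for the TATA box letters TATAAA and for the GC box letters GGGCGG, motifs chosen with the sequences in view. CCAAT, read on the opposite strand as ATTGG, was found in Col1a2, Col5a3 and Col11a1, 3 of 5 genes, and in 34.0% of the 33469 promoters of the table. TATAAA was found in Col1a2 alone of the 5 and in 12.9% of all promoters, and GGGCGG in Col5a1, Col5a3 and Col11a1 and in 30.5% of all. The stretches with a CCAAT match follow 5′ to 3′ on the strand of the gene, with the CCAAT box (on either strand) and the TATA box in capitals. They lie at chr4:33518316-33518415 (plus strand) for Col1a2, chr8:27626051-27626150 (minus strand) for Col5a3 and chr2:204508886-204509083 (plus strand) for Col11a1.
Col1a2: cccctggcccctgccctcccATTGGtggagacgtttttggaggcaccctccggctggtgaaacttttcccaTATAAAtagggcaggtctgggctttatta
Col5a3: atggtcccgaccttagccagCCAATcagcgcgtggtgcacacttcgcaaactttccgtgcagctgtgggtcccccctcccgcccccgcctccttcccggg
Col11a1: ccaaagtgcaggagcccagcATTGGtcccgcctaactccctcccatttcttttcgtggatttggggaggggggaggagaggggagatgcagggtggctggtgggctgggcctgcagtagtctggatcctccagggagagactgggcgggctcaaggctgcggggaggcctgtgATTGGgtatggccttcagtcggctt

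The match in Col1a2 begins 221 bases before the annotated start and that in Col5a3 182 bases before it, and Col11a1 has a pair, at 230 and 77 bases. Col5a1 and Col5a2 held no CCAAT in this window. Their changes were 0.66 and 0.51, and those of the 3 genes with a match were 0.42 to 0.77. Whether the motif bears on the changes was not tested. A match of letters is a description and no evidence of binding, and the annotated start may differ from the one used in these cells.

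Genes that act on the same fibrils were taken from 8 lists chosen by function with earlier results of these data known. Of their 79 measured genes 31 were higher and 1 lower, against 6.08% and 2.72% of all tested genes. For the values below, the median change over all tested genes was -0.16 with library totals and -0.02 with quantile normalization. At an unadjusted p under 0.05 by limma, 3355 of the 12733 tested genes passed in either direction. The other fibrillar chains were scarce. Col27a1 stood at 11.1 ± 0.767 and 13.1 ± 0.256 FPKM (SD, n = 3) and was not called (limma adjusted p = 0.0684). It passed without Control 2 (0.27, adjusted p = 0.0351, across settings 0.0234 to 0.418) and by voom (0.24, adjusted p = 0.0234). Col2a1, Col11a2 and Col24a1 lay under the limit for testing.

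Procollagen is modified and folded in the endoplasmic reticulum before export. Of 17 hydroxylases and chaperones 10 rose and none fell (16 higher and none lower at an unadjusted p under 0.05), with a median log2 fold change of 0.27 (0.09 with library totals and 0.15 with quantile normalization). They included P3h1, a prolyl hydroxylase (46.6 ± 0.903 to 61.8 ± 1.56 FPKM), Fkbp10, a procollagen chaperone (137 ± 1.67 to 171 ± 2.57 FPKM), Plod1, a lysyl hydroxylase (233 ± 5.49 to 296 ± 5.18 FPKM) and Serpinh1, the collagen chaperone HSP47 (802 ± 21.6 to 1048 ± 41.0 FPKM; SD, n = 3). Only 6 of the 17 passed without NAC 1 or without NAC 2, and 4 with quantile normalization, where Serpinh1 lost its call (0.12).

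Proteinases cut the propeptides off before fibrils form. Of 6 such genes 4 rose and 1 fell, with a median of 0.30 (0.13 with library totals and 0.15 with quantile normalization). Adamts2, which removes the amino-terminal propeptide, went from 42.1 ± 2.70 to 61.1 ± 3.90 FPKM, and Pcolce, which speeds removal of the carboxy-terminal one, from 931 ± 40.3 to 1206 ± 46.5 FPKM (SD, n = 3). The carboxy-proteinases moved apart: Bmp1 went from 40.3 ± 2.49 to 47.2 ± 0.869 FPKM (log2 fold change 0.23, limma adjusted p = 0.0448) and its relative Tll1 fell from 15.0 ± 0.643 to 9.72 ± 0.606 FPKM (-0.58, adjusted p = 0.00365). Leaving out any single library cost Bmp1 its call (0.18 to 0.27), as did library totals (0.06), quantile normalization (0.20), no filter or no trend (0.23 each) and the replicate number as a block (0.23). Across settings its adjusted p by limma ran from 0.0165 to 0.473. The Pcolce call ended with quantile normalization (0.10). Without Control 1, NAC 1, NAC 2 or NAC 3, 2 of the 6 genes passed as higher.

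Of 5 lysyl oxidases, which crosslink the finished fibril, 3 rose and none fell (4 and none unadjusted), with a median of 0.29 (0.14 with library totals and 0.25 with quantile normalization). Loxl1 went from 172 ± 7.53 to 269.6 ± 7.72 FPKM, Loxl2 from 87.0 ± 3.72 to 109.9 ± 0.673 FPKM and Lox from 632 ± 17.1 to 748 ± 2.67 FPKM (SD, n = 3). The Lox call (0.24) ended without NAC 1 or NAC 2 (0.24 each), with library totals (0.07) and with quantile normalization (0.06).

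Of 14 genes for proteins on or beside the fibril surface 8 rose and none fell (11 and 1 unadjusted). Their median of 0.42 (0.24 with library totals) was the highest of the lists as deposited, but not with quantile normalization (0.18, against 0.25 for the lysyl oxidases). Lum, lumican, which limits fibril width, went from 774 ± 22.2 to 1495 ± 38.1 FPKM, a log2 fold change of 0.95 beside the 1.00 of Col1a1. Fn1, fibronectin, on which cells lay down collagen, went from 1719.9 ± 73.1 to 3276 ± 36.6 FPKM (0.93), and Bgn, biglycan, from 1743 ± 5.79 to 2554 ± 60.3 FPKM (0.55; SD, n = 3). With quantile normalization 4 genes passed as higher and 1 as lower, and the Bgn call ended (0.03).

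Among 7 measured collagen receptors 3 rose and none fell (4 and 1 unadjusted), with a median of 0.22 (0.05 with library totals and 0.11 with quantile normalization). Mrc2, an endocytic receptor for collagen, went from 180.2 ± 1.42 to 242 ± 10.6 FPKM, Itgb1, the shared β subunit of the collagen-binding integrins, from 296 ± 5.36 to 345 ± 4.11 FPKM and Itga11, whose product pairs with it to bind fibrillar collagen, from 215 ± 6.67 to 253 ± 11.5 FPKM (SD, n = 3). Ddr2, a kinase receptor for fibrillar collagen, stood at 65.3 ± 3.62 and 57.5 ± 1.57 FPKM and was not called (limma adjusted p = 0.0757, across settings 0.00733 to 0.189). It passed as lower without Control 2 (-0.22), with library totals (-0.35) and by voom (-0.18). Itgb1 lost its call without NAC 1 or NAC 2 (0.22 and 0.23) and Itga11 lost its call without a filter or a trend (0.23 each) and without Control 1, Control 3, NAC 1 or NAC 2 (0.20 to 0.25), which left 1 receptor called without either of NAC 1 and NAC 2. Both calls also ended with library totals and with quantile normalization.

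Genes that break fibrillar collagen down or inhibit its breakdown were called higher in 3 of 7 cases, with no gene lower (4 and none unadjusted) and a median of 0.15, against -0.03 when scaled to library totals and -0.12 after quantile normalization. Ctsk, the collagen-cutting cathepsin K, went from 59.7 ± 0.251 to 85.8 ± 0.685 FPKM, the lowest adjusted p of the list by limma (5.20e-04; SD, n = 3). Mmp9 went from 24.1 ± 5.99 to 46.4 ± 6.81 FPKM and Mmp2 from 2529.5 ± 92.8 to 2925 ± 38.8 FPKM, both gelatinases. Without Control 3, NAC 1, NAC 2 or NAC 3, 1 gene of the list was called. Each of these ended the calls of Mmp9 (0.83 to 1.05) and Mmp2 (0.19 to 0.22), and Mmp2 also lost its call without Control 1 (0.20), with library totals (0.04), without a filter or a trend and with the replicate number as a block (0.21 each). The Mmp2 value turned to -0.04 with quantile normalization, and Mmp9 was not called without a filter or a trend or with robust estimation (0.93 each). The collagenase Mmp13 lay under the limit for testing, and Mmp8 was listed at 0. Mmp14 of the same list stood at 635 ± 16.9 and 630.5 ± 28.8 FPKM (SD, n = 3) and was not called (limma adjusted p = 0.911). The inhibitors Timp1 (673 and 703 FPKM in Control and NAC), Timp2 (1202 and 1329 FPKM) and Timp3 (2.49 and 2.21 FPKM) were not called.

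Of 22 genes that regulate collagen transcription or messenger RNA, limma called none in either direction (2 higher and 2 lower at an unadjusted p under 0.05). By voom on the recovered reads 1 was higher and 1 lower. With the filter at a mean of at least 5 FPKM, 1 of 20 was higher and none lower. Larp6, which binds collagen messenger RNA, stood at 8.42 ± 0.204 and 8.24 ± 0.365 FPKM (limma adjusted p = 0.803; SD, n = 3). Of the tendon transcription factors, Scx had 12.5 ± 1.30 FPKM in Control and 11.6 ± 0.700 in NAC (0.519 after adjustment), while Mkx had 5.28 ± 0.394 and 3.90 ± 1.07 (0.192). With library totals Mkx was called lower (-0.52), at an adjusted p of 0.0481 (across settings 0.0481 to 0.374). The most abundant of them, Ctgf, a matrix-inducing growth factor, stood at 1321 ± 111 and 1226 ± 44.1 FPKM (adjusted p = 0.367). The median of -0.07 became -0.24 with library totals, where 13 of the 22 were called lower. Ctgf passed as lower there (-0.28) and with quantile normalization (-0.38). These are RNA levels and do not measure the activity of the factors.

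**Figure D5:**
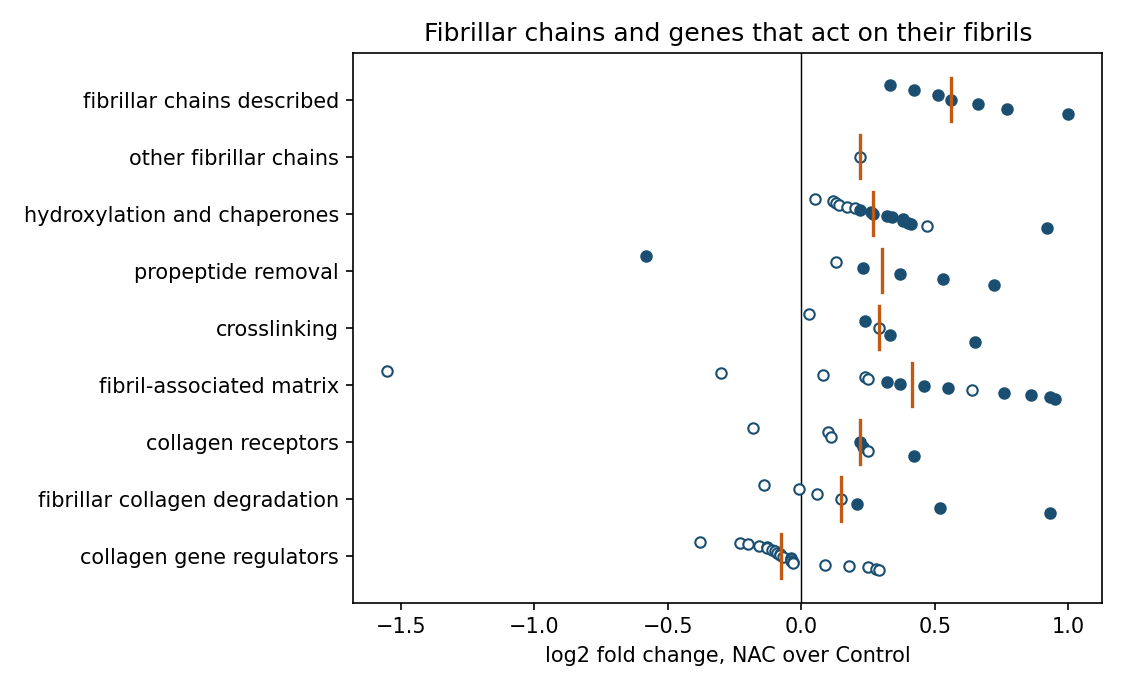
Log2 fold change, NAC over Control, of the 7 fibrillar chains (top row) and of the measured genes of 8 lists of genes that act on their fibrils. Filled points passed an adjusted p under 0.05, and vertical bars mark medians. The chains' median of 0.56 lies to the right of all list medians, which run from -0.07 to 0.42.

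The genes whose pattern over the 6 libraries was most like the mean of the 7 chains were Lamb2, a laminin chain of basement membranes, Serpinf1, a secreted antiangiogenic serpin, the small proteoglycan Dcn, Ptgfrn, a membrane protein, and Bgn. Their Pearson correlations of log2 values ran from 0.9978 to 0.9989. Those of the 7 chains themselves ran from 0.879 for Col1a2 to 0.998 for Col1a1. The mean contains each chain, so the chains' values are raised by this and cannot be ranked against those of other genes. These correlations hold mainly the shared difference between the groups and share the libraries' scaling: 354 of 6240 genes (5.67%) had one above 0.95. Lamb2 went from 142 ± 1.78 to 234 ± 11.8 FPKM (SD, n = 3), and the Dcn call ended without a filter (0.32) and with quantile normalization (0.05). Within the groups the chains did not move as one: Col1a2 was 0.21 above its group mean in Control 1 on the log2 scale, where Col5a3 was at -0.17 and Col5a2 at -0.10, while in NAC 1 all 7 chains were above their group means, by 0.02 to 0.10.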

How the data were processed

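RNA was extracted from the cells and sequencing libraries were made with a SMARTer kit, per the labels' protocols. The authors deposited 1 table of FPKM values, with a column per library and gene lengths. The aligner, counting method and use of strand were not given in the sources used here. Mouse builds GRCm38 and mm10 are named per the submitters' processing notes although the identifiers are those of rat. Columns headed N were taken as Control by elimination. Reads were recovered from FPKM times length, which came in whole steps in each library (100.0% of values within 0.01).

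Values were analysed as log2(FPKM + 1) for genes with a mean of at least 1 FPKM, with limma 3.58.1 in R 4.3.3 (trend, two-sided, all 6 libraries, group only). Single values and ratios used exact permutation tests (scipy 1.17.1). The method was tested on simulated data. It called 2 of 50 genes changed 1.25-fold and 33 of 50 changed 1.5-fold. At 2.0-fold it called 42 of 50 and at 4.0-fold 50 of 50, and of 12533 unchanged genes it called 10. A gene reported as not called may therefore have changed by a small amount. No 2 replicates were alike within sampling noise (chi-square over degrees of freedom 3.59 to 9.20). The members, lists and tests were chosen with earlier results of these data known, so list counts are no independent evidence. Named list genes are up to 3 called genes per list with the lowest adjusted p, the most abundant one where none was called, and a fixed set (Serpinh1, Bmp1, Pcolce, Adamts2, Lox, Col27a1, Col2a1, Itga11, Itgb1, Ddr2, Larp6, Scx, Mkx). The 5 genes most like the chains were ranked by Pearson correlation at a mean of at least 10 FPKM. Genes named beyond that (Col11a2, Col24a1, Col9a1, Mmp8, Mmp13, Mmp14, Timp1, Timp2, Timp3 and the cell markers) were chosen after their values were seen. Of 89 list entries 1 was absent from the table and 1 was found by an older name. The alternatives tried are given in the closing section. Limma on ratios to Col1a1 and to Col5a1 was fitted without trend and was added after the data were seen.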

Additional observations from a re-analysis of the deposited data

How the results depend on the processing

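The alternatives were a pseudocount of 0.1, no filter, a mean of at least 5 FPKM, library totals, median-of-ratios, quantile normalization, no trend, robust estimation, voom on recovered reads, the replicate number as a block, a threshold of 0.01 and leaving out each library. Col1a1, Col5a1, Col5a2, Col5a3 and Col11a1 stayed called as higher in all 16 fits. Col1a2 lost its call without a filter (0.42), with library totals (0.24), with quantile normalization (0.22), without trend (0.42) and in 5 of 6 leave-outs (0.36 to 0.52 over all 6), and Col3a1 with library totals (0.16), with quantile normalization (0.15) and in 3 leave-outs (0.28 to 0.36 over all 6). Against 774 genes higher and 346 lower, library totals gave 467 and 3722 (11.1% higher against 69.1%), quantile normalization 567 and 408 (58.2% higher), the replicate block 466 and 110, a threshold of 0.01 238 and 32, and leave-outs 264 to 859 and 51 to 347. The lower genes numbered 207 without a filter, 206 without trend and 529 with voom. The replicate block changed the call of no chain but ended those of Bmp1 (0.23, limma adjusted p = 0.101) and Mmp2 (0.21, adjusted p = 0.0687), and 80.9% of the genes called with it were higher. Samples of the same number did not deviate together (correlations -0.0502 to 0.0627). Of the fibril lists' genes, 31 higher and 1 lower became 15 and 4 with quantile normalization, 18 to 30 and 1 to 2 in leave-outs, and the lower ones 16 with library totals and 3 with voom. The share of the chains was higher with NAC by 1.48 percentage points in recovered reads against 0.631 in FPKM. The 79 alternative values of the ratios (1 FPKM added, leave-outs and limma, with no other scaling) moved by less than the spread between libraries, whereas under quantile normalization Col1a1 (0.52) changed no more than Col5a1 (0.52), Col11a1 (0.55) and Col5a3 (0.78). The cause of these differences was not tested. Depth limits Col5a3 most, at 506 to 1045 reads per library.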
